A study of Saccharomyces cerevisiae with 4 samples.

Results

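The genes described here are 10 genes of serine and threonine metabolism in budding yeast (Saccharomyces cerevisiae): CHA1 (YCL064C), ILV1 (YER086W), MMF1 (YIL051C), HMF1 (YER057C), CHA4 (YLR098C), SER3 (YER081W), SER33 (YIL074C), SER1 (YOR184W), SER2 (YGR208W) and GLY1 (YEL046C). They were taken by systematic name from the 6207 gene rows of the deposited table, and all 10 had a value on all 4 arrays. The set was chosen by gene function with the knockout over wild-type ratios of these same 4 arrays known, so those ratios are given as a description, with no test. Each 2-colour array set RNA of a Loc1 knockout culture (strain PSY3262) against RNA of a wild-type culture (strain PSY3259), both grown in rich medium (YPD) at 30 °C to early log phase. By the labels, knockout RNA carried the dye Cy5 on arrays 1 and 4, with wild-type RNA in Cy3. The dyes were exchanged on arrays 2 and 3. The 4 arrays are described as independent biological replicates. The strain tags of array 4 name the knockout strain in both channels, and its channel descriptions, which name knockout and wild type, were followed. The sources used here do not give how the LOC1 gene was removed or what else differs between the strains. LOC1 encodes a nuclear RNA-binding protein of ribosome assembly and of mRNA transport to the bud.

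Yeast makes serine from the glycolytic intermediate 3-phosphoglycerate in 3 enzymatic steps, and when serine or threonine is plentiful it can break both down by deamination to pyruvate or 2-oxobutanoate and ammonia. Deamination passes through reactive enamine and imine intermediates, which enzymes of the Rid family hydrolyse. The activator Cha4 links the branches: with serine present it turns on the deaminase gene CHA1, and it also drives the noncoding transcript SRG1, whose transcription represses the synthesis gene SER3.

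The direction of the deposited ratios was not settled by the dyes. LOC1 itself read -1.20, 0.972, -1.07 and 1.31 log units on arrays 1 to 4 as deposited, and each array was turned so that LOC1 lay below 0, giving a mean of -1.14 ± 0.146 (SD, n = 4). Arrays 1 and 4 share a labelled orientation, yet over 6177 other gene rows their deposited ratios had a correlation of r = -0.771. Arrays 2 and 3, which also share one, had r = -0.71 over 6170 rows. Both were taken across genes, and genes are no independent replicates. The turning rests on measured values, so the direction is called likely, and with the whole sign turned every higher value below becomes a lower one. The values end at a size of 2 log units, which stands for 100-fold in base 10 or 4-fold in base 2. They were read as log10 from this limit alone, so folds are given "if base 10". Intensities were not analysed here, so how far each gene stood above background is not known, and precision is limited by having 4 arrays. In a bulk culture, a gene used by fewer cells and less of its RNA per cell cannot be told apart.

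CHA1 and MMF1 were higher in the knockout on every array, SER1 had mixed signs, and the other 7 genes were lower on every array. Thus 9 of the 10 genes had the same sign on all 4 arrays. Among the 6205 gene rows tested, 56.6% kept one sign across their measured arrays, 28.5% above 0 and 28% below. The alignment of the arrays on measured values builds in part of that share. The means ran from 0.863 log units for CHA1 to -0.355 for SER3. Their median was -0.0881, against 0.0019 for all rows tested, and their median size was 0.13 log units, against 0.0679.

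**Figure D1:**
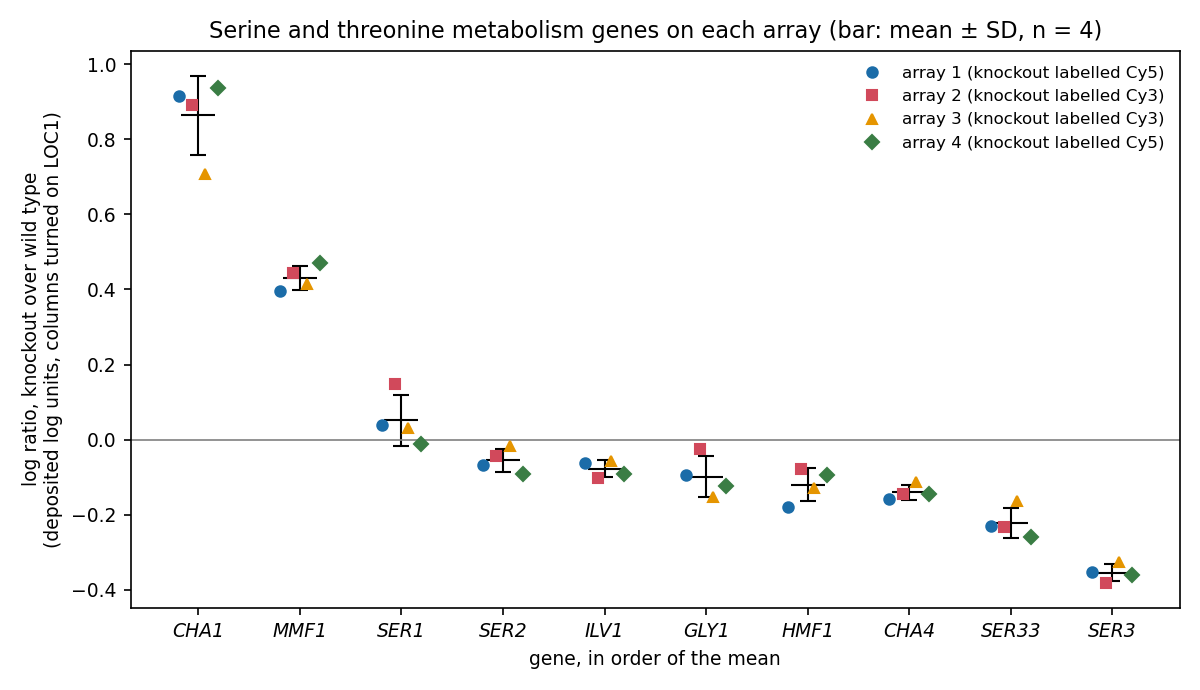
Log ratio of each of the 10 genes, knockout over wild type, in deposited log units on the y axis, with 1 point per array and bars for the mean ± SD (n = 4). CHA1 and MMF1 sit above 0 on all 4 arrays, SER3 and SER33 lowest, and the 4 points of a gene lie close together beside the distance between CHA1, MMF1 and the rest.

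CHA1, the catabolic deaminase that degrades serine and threonine in mitochondria, was the highest of the 10 genes. Its deposited values were 0.916, -0.892, 0.708 and -0.937 on arrays 1 to 4, opposite in sign to LOC1 on each. Turned, they were 0.916, 0.892, 0.708 and 0.937 log units, so arrays 1, 2 and 4 were close to one another and array 3 was lower. The mean was 0.863 ± 0.105 log units (SD, n = 4), a fold of 7.30 if base 10 and of 1.82 if base 2. CHA1 ranked 2 from the top of the 6205 rows by its mean, and ranked 7, 9, 5 and 4 from the top on arrays 1 to 4. With the whole sign turned its mean would be -0.863 and its rank 2 from the bottom.

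ILV1, the other deaminase of the group, converts threonine to 2-oxobutanoate as the first step toward isoleucine. Its turned values were -0.061, -0.101, -0.0559 and -0.0915 log units on arrays 1 to 4, with a mean of -0.0774 ± 0.0223 (SD, n = 4). All 4 values were below 0 and the size of the mean was larger than that of 55.7% of all rows. CHA1 therefore lay above ILV1 on every array. The difference between their log ratios was 0.977, 0.993, 0.764 and 1.03 log units on arrays 1 to 4.

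MMF1 and HMF1 are paralogs of the Rid family, Mmf1 in mitochondria and Hmf1 in the cytosol and nucleus. MMF1 had turned values of 0.396, 0.444, 0.413 and 0.469 log units on arrays 1 to 4. It was high on every array, within a narrow range, and its mean was 0.431 ± 0.0323 (SD, n = 4), a fold of 2.70 if base 10. It ranked 19 from the top by its mean, and 39, 26, 14 and 26 from the top on arrays 1 to 4. HMF1 had turned values of -0.178, -0.0794, -0.129 and -0.0932 log units, with a mean of -0.12 ± 0.0441 (SD, n = 4). It was below 0 on every array and did not overlap with MMF1. The log ratio of MMF1 exceeded that of HMF1 by 0.551 ± 0.0224 log units (SD, n = 4), or 3.55-fold if base 10, with 0.574, 0.523, 0.542 and 0.562 on arrays 1 to 4. The SD of this difference was below that of either gene.

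**Figure D2:**
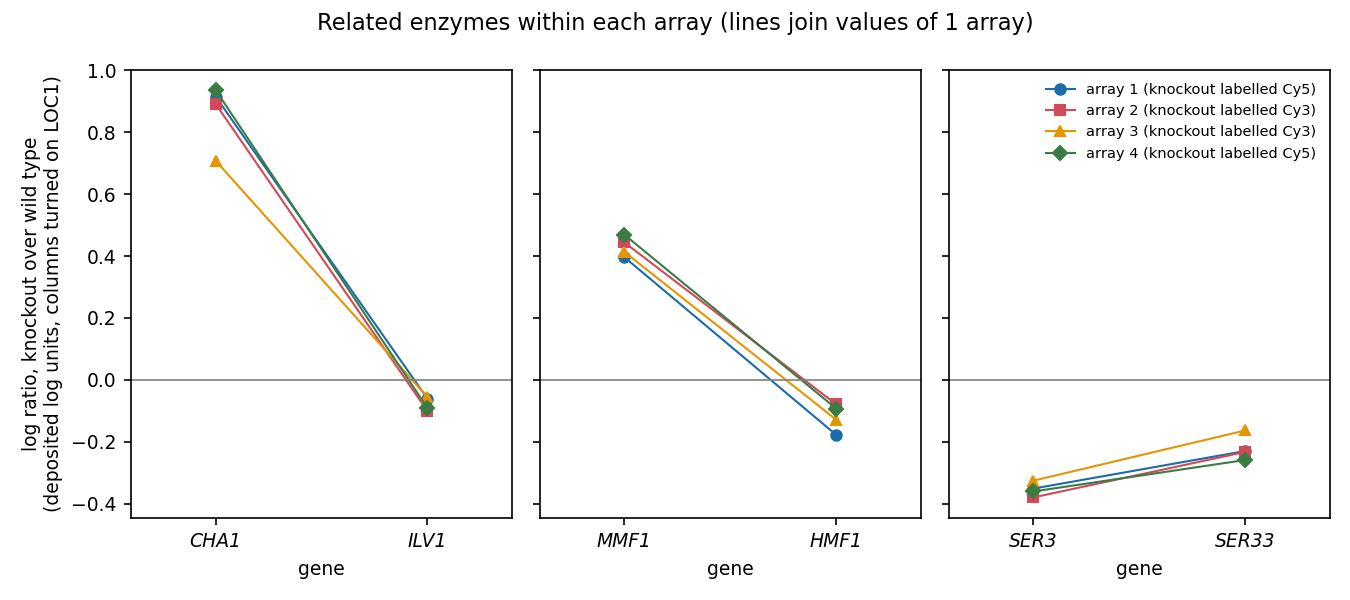
Log ratios of 3 pairs of related genes, knockout over wild type, in deposited log units on the y axis, with lines joining the values of 1 array. CHA1 lies above ILV1 and MMF1 above HMF1 across 0 on all 4 arrays, while SER3 and SER33 both lie below 0 with SER3 the lower on all 4.

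CHA4, which encodes the zinc cluster activator of CHA1, had turned values of -0.159, -0.146, -0.112 and -0.146 log units on arrays 1 to 4. They were below 0 on every array, and the mean of -0.141 ± 0.02 (SD, n = 4) was a fold of 1.38 lower if base 10. Its SD was the lowest of the 10 genes, and only 6.51% of all rows had a smaller one. The mRNA of the activator was thus below 0 and that of its target CHA1 above 0 on all 4 arrays. A relation between them was not tested. No measure of Cha4 protein was analysed here.

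SER3 and SER33 encode paralogous 3-phosphoglycerate dehydrogenases, which carry out the first step of serine synthesis. SER3 had turned values of -0.352, -0.38, -0.326 and -0.361 log units on arrays 1 to 4. It was the lowest of the 10 genes on every array, with a mean of -0.355 ± 0.0225 (SD, n = 4), a fold of 2.26 lower if base 10 and of 1.28 if base 2. It ranked 66 from the bottom of the 6205 rows by its mean, and 93, 72, 96 and 64 from the bottom on arrays 1 to 4. SER33 had turned values of -0.23, -0.233, -0.164 and -0.259 log units, with a mean of -0.222 ± 0.0407 (SD, n = 4), or 1.67-fold lower if base 10. It came next to SER3 on every array, and its range did not overlap with that of SER3. The log ratio of SER3 minus that of SER33 was -0.121, -0.147, -0.162 and -0.102 log units on arrays 1 to 4. Ser3 and Ser33 are close in sequence and probe sequences were not analysed here, so their rows may share signal. The same limit holds for MMF1 with HMF1.

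SER1, the phosphoserine aminotransferase of the next step, was the 1 gene with mixed signs. Its turned values were 0.0399, 0.147, 0.0302 and -0.0117 log units on arrays 1 to 4. Array 2 was the highest and array 4 lay just below 0, so the mean of 0.0514 ± 0.0676 (SD, n = 4) was smaller than its spread. SER2, the phosphoserine phosphatase that completes the pathway, had turned values of -0.0671, -0.0448, -0.018 and -0.0923 log units. All were below 0 but small, with a mean of -0.0555 ± 0.0316 (SD, n = 4). The difference between the dehydrogenase genes and the later steps held within arrays: SER33 minus SER2 was -0.163, -0.189, -0.146 and -0.167 log units on arrays 1 to 4.

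GLY1 encodes threonine aldolase, which splits threonine into glycine and acetaldehyde. Its turned values were -0.0937, -0.0244, -0.153 and -0.125 log units on arrays 1 to 4. They were below 0 on every array, with array 2 nearest to 0, and the mean was -0.0988 ± 0.0551 (SD, n = 4).

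In the order of the means, CHA1 and MMF1 were followed by SER1, SER2, ILV1, GLY1, HMF1, CHA4, SER33 and SER3. CHA1, MMF1 and SER1 held the first 3 places and SER33 and SER3 the last 2 on each of the 4 arrays. Between them, the neighbours SER2 and ILV1, ILV1 and GLY1, GLY1 and HMF1, and HMF1 and CHA4 overlapped in range, so 4 of the 9 neighbouring pairs were not separated. Their means differed by 0.0207 to 0.0218 log units, less than the SD of either gene of the pair except for HMF1 and CHA4, where CHA4 alone had an SD of 0.02. Means by labelled dye orientation differed by more than these distances for several genes. On the arrays labelled with the knockout in Cy5 and in Cy3, CHA1 had means of 0.926 and 0.80, and MMF1 of 0.433 and 0.429. SER3 had -0.356 and -0.353, and SER33 -0.245 and -0.199. SER1 had 0.0141 and 0.0887, and SER2 -0.0797 and -0.0314. CHA1 and MMF1 stayed highest and SER33 and SER3 lowest in both labelled orientations. Arrays sharing a label ran opposite as deposited (r = -0.771 for arrays 1 and 4, -0.71 for 2 and 3). The labels may therefore not give the dyes of the ratios, and a dye effect was not tested.

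**Figure D3:**
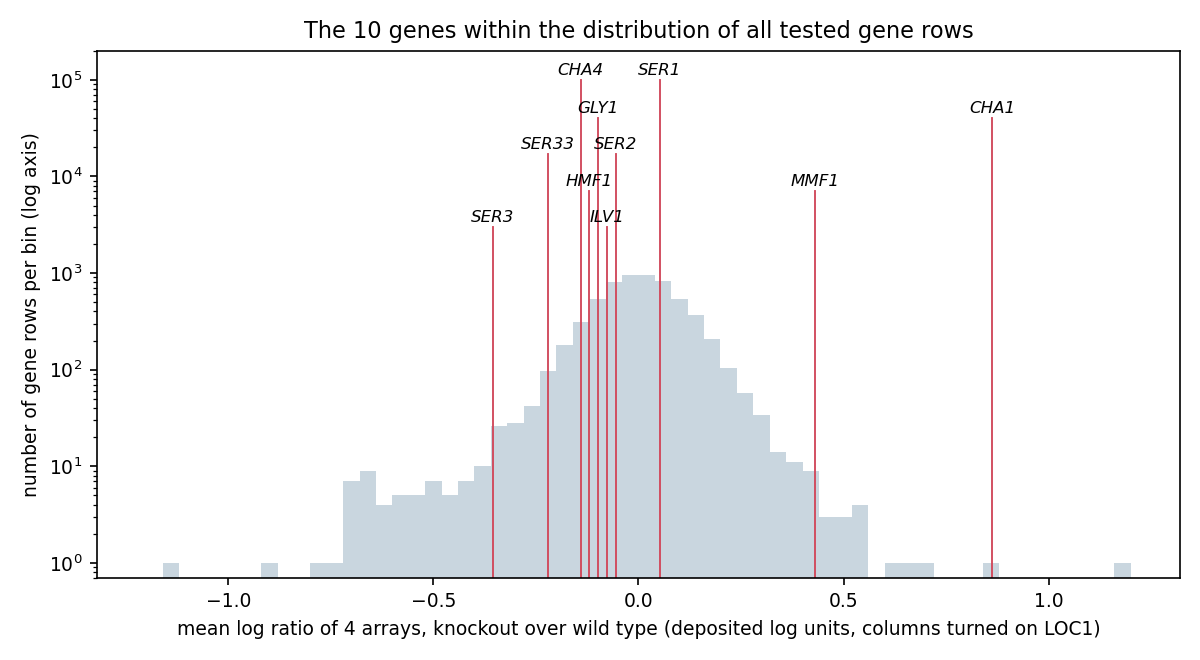
Histogram of the mean log ratio over the 4 arrays (x axis, deposited log units) of the 6205 gene rows tested, with the number of rows per bin on a log axis and red lines at the 10 genes. CHA1 and MMF1 lie in the upper tail, SER3 and SER33 (rank 202 from the bottom) in the lower tail, and the other genes within the bulk.

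The other genes of these pathways were read from 6 lists of 37 genes in all, written with earlier results of these data known. In limma, with p-values adjusted by Benjamini-Hochberg over all rows tested and a threshold of 0.05, 10 of the 37 were higher and 9 lower. That is 51.4% of these genes, beside 44.2% of all rows tested (22.5% higher and 21.7% lower), so the share is near the background. With the whole sign turned, 9 would be higher and 10 lower.

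Among 10 genes of glycine cleavage and one-carbon metabolism, which interconvert serine and glycine, 4 rose and 1 fell, and their median was 0.0414 log units. The glycine cleavage genes GCV1 and GCV3 rose most. GCV1, the aminomethyltransferase subunit, had 0.554, 0.507, 0.614 and 0.493 log units on arrays 1 to 4, with a mean of 0.542 ± 0.0544 (SD, n = 4, adjusted p = 1.8e-05 in limma). GCV3, the lipoyl-carrying subunit, had 0.587, 0.635, 0.452 and 0.417, with a mean of 0.523 ± 0.105 (adjusted p = 6.7e-05 in limma, n = 4). Both were far above 0 on every array, yet below CHA1 on every array. SHM2, the cytosolic serine hydroxymethyltransferase, rose by 0.281 ± 0.067, and GCV2, the decarboxylase subunit, by 0.224 ± 0.0664. LPD1, named after its value was seen, encodes the lipoamide dehydrogenase that glycine cleavage shares with other complexes, and it fell by 0.205 ± 0.0589 (adjusted p = 0.00099 in limma, n = 4).

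Of 5 genes that make threonine, HOM2, the aspartate semialdehyde dehydrogenase, rose by 0.153 ± 0.0613 log units (SD, n = 4) and HOM6, the homoserine dehydrogenase, fell by 0.0714 ± 0.0435. HOM6 had adjusted p = 0.048 in limma and lost its call without replicate 1, 3 or 4. Their list had a median of -0.058. Of 6 genes of isoleucine and valine synthesis after Ilv1, the dihydroxyacid dehydratase gene ILV3 rose by 0.181 ± 0.0449 and the acetolactate synthase regulatory subunit gene ILV6 by 0.0793 ± 0.0268. The cytosolic branched-chain aminotransferase gene BAT2 fell by 0.105 ± 0.0659, and the list had a median of 0.0574. ILV6 lost its call without replicate 1, 2 or 4 and BAT2 without replicate 1, 3 or 4, with adjusted p from 0.053 to 0.085 in limma.

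Of 6 genes whose products use serine, 3 fell and 0 rose, with a median of -0.0402 log units. By unadjusted p under 0.05 the count of rises was also 0. The share called was 50%, beside 44.2% of all rows tested (22.5% higher and 21.7% lower), so it is near the background. With 6 genes, no direction is read from these counts. LCB2, a subunit of serine palmitoyltransferase, fell by 0.207 ± 0.0428 (SD, n = 4, adjusted p = 0.00062 in limma). CYS4, the cystathionine beta-synthase gene, fell by 0.12 ± 0.0868, and TRP5, the tryptophan synthase gene, by 0.095 ± 0.0542. CYS4 lost its call without replicate 3 or 4 and TRP5 without replicate 1 or 4. Of the enzymes that make and use 3-phosphoglycerate in glycolysis, the kinase gene PGK1 fell by 0.336 ± 0.0323 and the mutase gene GPM1 rose by 0.0727 ± 0.021. GPM1 lost its call without any 1 of the 4 replicates, at adjusted p = 0.052 to 0.12 in limma.

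Of 8 regulators, 2 rose and 2 fell, with a median of -0.0242 log units. GCN4, the activator of amino acid synthesis genes, had 0.32, 0.30, 0.209 and 0.226 on arrays 1 to 4, a mean of 0.264 ± 0.0544 (SD, n = 4, adjusted p = 0.00029 in limma). BAS1, an activator of purine and glycine cleavage genes, rose by 0.0837 ± 0.0245, a call that did not hold without replicate 3 (adjusted p = 0.081 in limma). SPT16, a histone chaperone that acts in transcription, fell by 0.198 ± 0.0632, and SPT6, another, fell by 0.162 ± 0.0707.

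**Figure D4:**
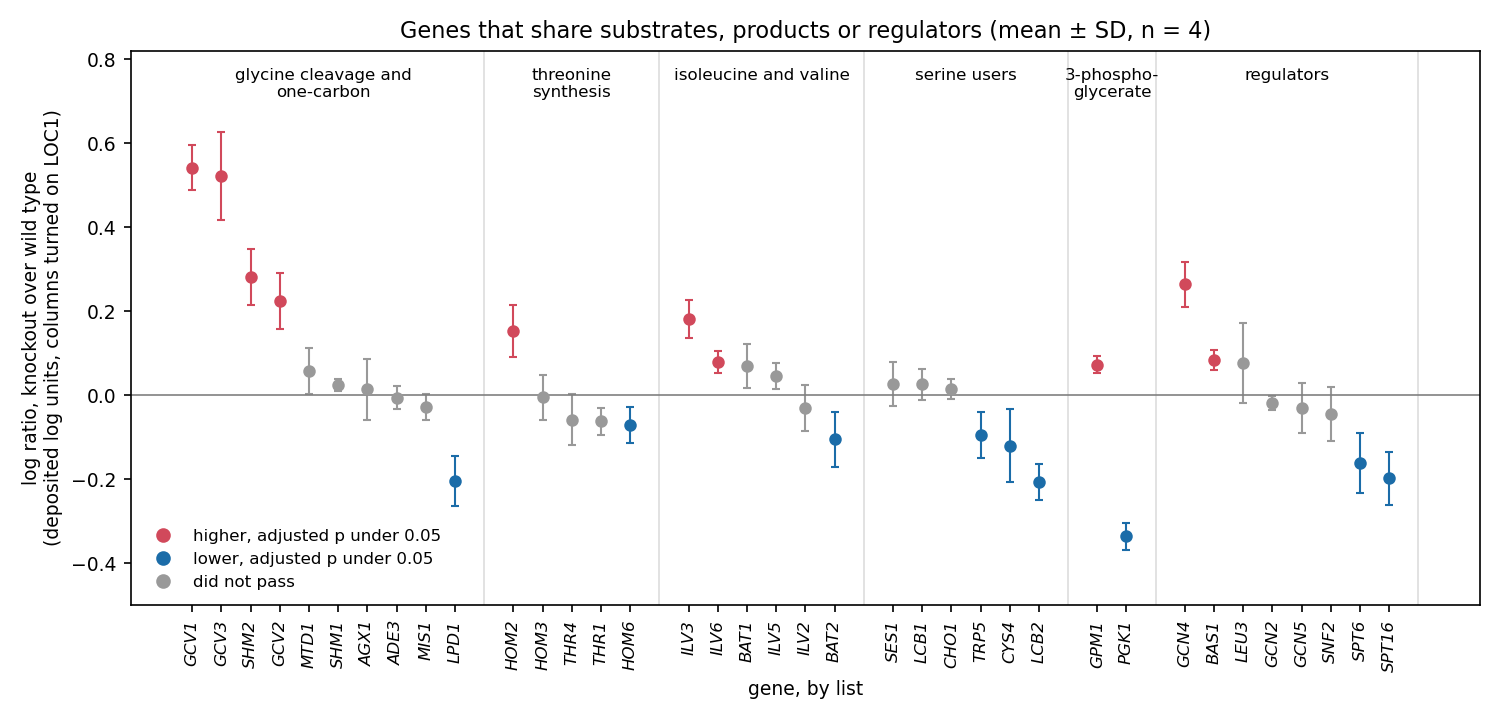
Mean log ratio ± SD (n = 4), knockout over wild type, in deposited log units, of 37 genes in 6 lists, coloured by limma adjusted p under 0.05 (red higher, blue lower, grey not passed). GCV1 and GCV3 are the highest and PGK1 the lowest. Each list except that of PGK1 and GPM1 holds genes that did not pass.

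Likeness of pattern was measured as the Euclidean distance over the 4 turned log ratios to each of 5117 other rows with a symbol. The rows closest to CHA1 were GCV1 at 0.696, GCV3 at 0.714 and PNS1 at 0.728, and the means of the 3 were between 0.522 and 0.542 log units, well below that of CHA1. The rows closest to MMF1 were much nearer. They were MPC2 at a distance of 0.0988, RTC3 at 0.112 and RIB5 at 0.127, with means of 0.394 ± 0.0515, 0.433 ± 0.077 and 0.383 ± 0.0589 (SD, n = 4). Because 1 contrast was measured, this distance reflects mostly the size of the change.

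On the chromosomes, both pairs of paralogs are split between chromosomes V and IX, with HMF1 and SER3 on V and MMF1 and SER33 on IX. MMF1 lies next to the ribosomal protein gene RPL34B and HMF1 next to its copy RPL34A. RPL34B had 0.0785 ± 0.0529 log units (SD, n = 4, adjusted p = 0.043 in limma, lost without any 1 replicate) and RPL34A had 0.0433 ± 0.0907. On the other side of MMF1, PCL7 had 0.0159 ± 0.075. CHA1 on chromosome III lies between HMLALPHA1, which rose by 0.196 ± 0.132 (adjusted p = 0.0099 in limma, n = 4), and VAC17, at -0.0448 ± 0.0348. HMLALPHA1 had 0.31 log units on arrays 1 and 4, where the labels put the knockout in Cy5. It had 0.0818 on arrays 2 and 3, labelled Cy3, and did not pass there (adjusted p = 0.17 in limma). The labels did not settle the direction of the ratios, so a dye effect on this row was not tested. HMLALPHA1 has an identical copy at the mating-type locus of alpha cells, so its row may hold signal of either. SER3 lies between SRG1, the noncoding gene that represses it, not analysed here, and UTP7, at 0.0431 ± 0.0558. Beside SER33, RPN2 fell by 0.11 ± 0.044 and SPO22 rose by 0.106 ± 0.0181. Both calls held without any 1 replicate but were lost on arrays 1 and 2, on 1 and 4, and on 2 and 3. Over all 10 genes, 18 of 20 flanking genes were measured, and 3 rose and 5 fell, beside 44.2% of all rows called in either direction, so their share is near the background. Besides RPN2, the 5 were TRX2 next to SER2, which fell by 0.195 ± 0.0388, ICT1 next to CHA4, which fell by 0.149 ± 0.0539, PET117 next to HMF1, which fell by 0.136 ± 0.0756, and AIM10 next to ILV1, which fell by 0.127 ± 0.0159. PET117 and AIM10 lost their calls on arrays 1 and 2 and on arrays 2 and 3. All flanking means lay between -0.195 and 0.196 log units, and none reached the size of MMF1 or SER3.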

How the data were processed

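The authors deposited a table of 6210 rows and 4 columns of log ratios, read here as log10 from the limit of the values alone. The sources used here do not give the scanner, the background correction, the normalization or the log base. Per the labels' protocols, RNA was isolated with hot phenol, copied from an oligo-dT primer and labelled with random primers. The 3 control rows were left out. Columns were turned to place LOC1 below 0 and not centred, since the turned medians lay between -0.0119 and 0.0107. Rows with a value on at least 3 arrays (6205) were tested two-sided for a mean other than 0 with limma 3.58.1 (lmFit, then eBayes) under R 4.3.3. P-values were adjusted by Benjamini-Hochberg over these rows, and an adjusted p under 0.05 counted as a call. Array count, not sequencing depth, sets the precision.

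The genes, the 6 lists and the turning were chosen with earlier results of these data known. Gene names and neighbours came from RefSeq locus tags of the assembly R64 (5654 of 6207 IDs matched), and no coordinates or sequences are given. Besides the 10 genes and LOC1, the genes named are, per list, up to 4 past the threshold with the largest absolute means, or the 2 with the smallest p. The 3 closest in pattern to CHA1 and to MMF1 and flanking genes are named too. Of the flanking genes, those of the 4 genes with the largest absolute means, those past the threshold and RPL34A are named. Alternatives were other turnings of the columns, centring, scaling, quantile normalization, pairs of arrays, each replicate left out, complete rows only and a trended robust variance prior. The pairs of 1 labelled dye orientation were added after seeing the data.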

Additional observations from a re-analysis of the deposited data

Results flagged for a closer look

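Dixon's ratio was computed over the 4 arrays for 54 values (the genes named, the median of the 10 genes and 7 differences between them), and 2 passed its critical value for 4 samples, where chance alone passes about 1 in 20. The difference between CHA1 and SER3 was 1.27, 1.27, 1.03 and 1.30 log units on arrays 1 to 4, with array 3 apart from the others at a ratio of 0.885. SPT16 was -0.226, -0.238, -0.104 and -0.224, again with array 3 apart, at a ratio of 0.892. Without replicate 3, CHA1 was at 0.915 log units and SPT16 at -0.229. The part of array 3 in either value was not tested.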

How the results depend on the processing

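All 10 genes kept their side of 0 without any 1 replicate, on any pair of arrays tried, and after centring, scaling or quantile normalization. Sizes were less stable: quantile normalization moved CHA1 from 0.863 to 1.04 log units and LOC1 from -1.14 to -1.30. Each moved by more than its SD in the main setting. Turning arrays by their correlation with array 1 gave the same values as the main setting. Its overall direction was again set by LOC1, so it could show only which arrays run opposite, not the side of 0. Without 1 replicate, CHA1 ranged from 0.839 to 0.915, MMF1 from 0.418 to 0.442 and SER3 from -0.364 to -0.346, while SER1 ranged from 0.0195 (without replicate 2) to 0.0724 and was at 0.0093 on arrays 3 and 4. With the whole sign turned, LOC1 was at 1.14, CHA1 at -0.863, MMF1 at -0.431, SER1 at -0.0514, SER2 at 0.0555, ILV1 at 0.0774, GLY1 at 0.0988, HMF1 at 0.12, CHA4 at 0.141, SER33 at 0.222 and SER3 at 0.355, their median without LOC1 was 0.0881, and every other gene changes sign likewise. With arrays turned by the dye labels, the values nearly cancelled. The median of the 10 genes was -0.0062, 1 row of the table and 0 of the 37 pathway genes passed in limma (72 rows at an unadjusted p under 0.05), and the genes that changed sign were LOC1 at 0.0518, MMF1 at -0.0105, GLY1 at 0.0398, GPM1 at -0.0043, GCV1 at -0.0116, ILV3 at -0.0274, BAT2 at 0.0428, CYS4 at 0.0725, HOM6 at 0.0335, LPD1 at 0.0375, PNS1 at -0.0529, RTC3 at -0.0611, RIB5 at -0.0262, VAC17 at 0.0082, AIM10 at 0.0095, PET117 at 0.0509 and RPN2 at 0.0077. The main setting passed 2743 rows and 19 pathway genes, against 2891 and 18 on arrays 3 and 4, 1185 and 12 on arrays 1 and 2 (median of the 10 genes -0.070), 1795 and 15 on arrays 1 and 4, 1294 and 11 on arrays 2 and 3, and 2049 to 2605 and 14 to 17 without 1 replicate. On arrays 3 and 4 PCL7 was at -0.0436 and RPL34A at -0.0174, and without 1 replicate PCL7 ranged from -0.0109 to 0.0459. None of these passed in the main setting. Each array's ratio is already a difference within 1 pair of cultures, so the test of these ratios is the paired analysis and no replicate block applies.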
